A study of Rattus norvegicus with 16 samples.

Results

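Sst, Pmch, Penk and Tac1 encode the precursors of 4 families of hypothalamic neuropeptides, and their transcripts were followed through the hypothalamus of young female rats whose maternal line had eaten endocrine disrupting chemicals (EDC) as a mixture, or vehicle alone. The genes were chosen by Ensembl rat ID (ENSRNOG00000001837, ENSRNOG00000004632, ENSRNOG00000008943 and ENSRNOG00000007374, in that order), and they are 4 of the 32883 genes counted. The deposited files hold IDs without names, and none of the 47357 genes in the RefSeq gene table used here carries an Ensembl ID, so the names are those given with the list of IDs. No annotation used here names any of the 4 IDs otherwise, and all 4 symbols are in the RefSeq table.

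RNA from the hypothalamus, in a dissection labelled MBH-PoA, was sequenced in 16 Wistar females aged 21 days, 4 in each of the groups F1 EDC, F1 control, F3 EDC and F3 control. Food carried the mixture from 2 weeks before gestation through the end of lactation. F1 EDC rats met the EDC mixture in utero and F1 control rats met vehicle in utero, whereas in F3 EDC and F3 control rats the EDC mixture or the vehicle had been given to the ancestors along the maternal lineage. The groups follow the treatment and source labels, because the titles of all EDC samples also read Control. The labels give neither the make-up and dose of the mixture nor the litters of the rats, so p-values measure the spread between these rats, which may share litters. The labelled tissue was not checked against its marker genes, since IDs are not paired with names.

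All 4 genes encode proproteins that neurons cut into secreted peptides, store in dense-core vesicles and release onto G protein-coupled receptors. Somatostatin, from Sst, inhibits its target cells: periventricular neurons send it to the pituitary, where it restrains growth hormone, and many inhibitory neurons elsewhere in the hypothalamus and forebrain make it too. Melanin-concentrating hormone, from Pmch, is made almost entirely by neurons of the lateral hypothalamus and zona incerta and is known for promoting feeding and sleep. Enkephalins, from Penk, are opioid peptides that act on delta and mu opioid receptors, and substance P and neurokinin A, from Tac1, are tachykinins that mostly excite their targets.

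The promoters are shown for Sst and Tac1, because the RefSeq promoter table (build GRCr8) matched these 2 of the 4 symbols. Pmch and Penk are named only. Each sequence runs 5′ to 3′ on the plus strand, from 250 bases before to 50 bases after the annotated start, at chr11:90461296-90461595 for Sst and chr4:36645333-36645632 for Tac1. Capitals mark matches to the cAMP response element TGACGTCA and to the E-box CACGTG.
Sst: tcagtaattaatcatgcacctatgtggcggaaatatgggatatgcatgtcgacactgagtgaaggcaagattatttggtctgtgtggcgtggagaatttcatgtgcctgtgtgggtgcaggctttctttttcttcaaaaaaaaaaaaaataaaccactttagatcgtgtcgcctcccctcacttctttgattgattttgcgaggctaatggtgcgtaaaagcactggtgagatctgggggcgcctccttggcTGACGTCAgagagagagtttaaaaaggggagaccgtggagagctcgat
Tac1: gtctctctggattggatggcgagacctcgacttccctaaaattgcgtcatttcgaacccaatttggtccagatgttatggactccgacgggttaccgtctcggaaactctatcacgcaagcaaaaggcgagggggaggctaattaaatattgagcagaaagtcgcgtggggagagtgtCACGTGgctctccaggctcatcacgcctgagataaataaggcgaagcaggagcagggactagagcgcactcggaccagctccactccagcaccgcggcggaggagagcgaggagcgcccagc

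The Sst window held 1 full cAMP response element, the motif bound by CREB, whose first base lies at position 3 counted from 1 at the annotated start. This motif occurs in 1.83% of the 33469 promoters of the same length. The Tac1 window held no full element, 1 match to its shorter form TGACG on the minus strand (first base at -206, upstream of the start) and 1 E-box (at -72). On either strand, TGACG occurs in 21.2% of all promoters and CACGTG in 6.42%. The TATA box TATAAA (14.2% of promoters) was also searched on both strands and was not in these windows. The Sst matches to TGACG, 1 on each strand, lie within its full element. A match is a run of letters and not a measured binding site.

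Each library gave 5655354 to 35981898 counts assigned to genes. The 4 F1 EDC libraries stood apart from the other 12 across all genes, with scores of 84.7 to 88.0 on the first principal component of log2 CPM (46.2% of the variance), against -37.9 to -11.5 in the others, so contrasts with F1 EDC rest on a group that differs in a large part of the transcriptome. Multimapping reads, which are not in the gene counts, took 41.8% to 51.6% of the reads in F1 EDC libraries, 19.9% to 43.2% in F1 control, 15.7% to 44.4% in F3 EDC and 16.5% to 43.3% in F3 control. All F1 files carry one lane number and all F3 files another, so a difference between generations cannot be told apart from one between lanes. Counts of the 4 genes ran from 155 (Tac1, F1 control replicate 4) to 5851 (Pmch, F3 EDC replicate 1), which gives a counting error of 8.03% and 1.31%. Levels are given as CPM, gene counts scaled to the size of each library with TMM factors, and CPM values of different genes are not comparable because they are not divided by gene length.

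In F1, EDC exposure, for which the food carried the mixture through the end of lactation, went with less Pmch and more Sst transcript. Pmch averaged 86.3 ± 24.7 CPM in F1 EDC and 205 ± 45.6 CPM in F1 control, 2.36-fold lower by the fitted estimate (SD, n = 4 each). Sst averaged 45.1 ± 4.67 CPM in F1 EDC and 30.9 ± 3.97 CPM in F1 control, 1.47-fold higher (SD, n = 4 each). Penk and Tac1 did not pass the threshold, a Benjamini-Hochberg adjusted p of 0.05 over 15366 tested genes in edgeR's quasi-likelihood test. Thus 1 of the 4 genes was called higher, against 25.4% of all tested genes, and 1 lower, against 27.0%, together 2 of 4 against 52.4%, so the count by itself sets these genes apart from nothing.

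**Figure D1:**
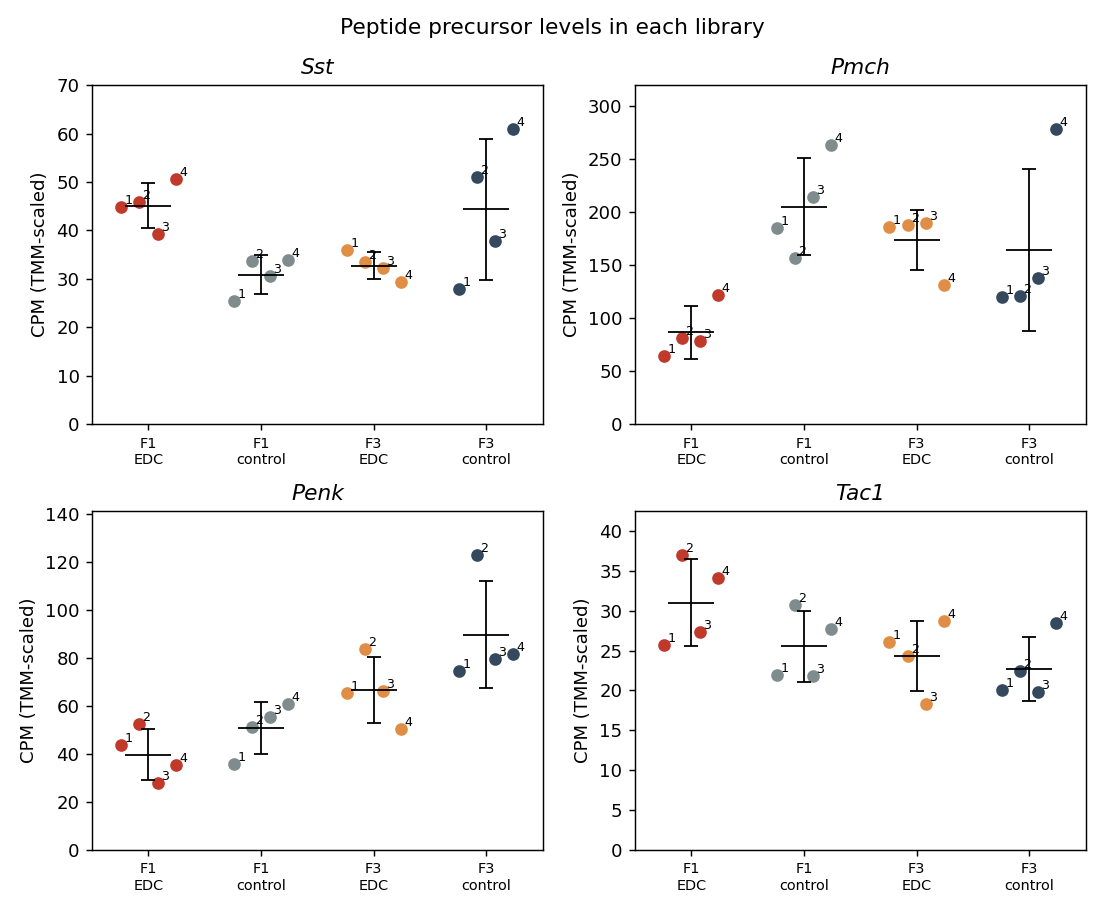
CPM of Sst, Pmch, Penk and Tac1 (vertical axes, TMM-scaled, from 0) in each of the 16 libraries, by group. Points are libraries marked with their replicate number, and bars are the mean and SD of 4. The F1 EDC points for Pmch (64.4 to 122 CPM) lie below all F1 control points (157 to 264 CPM), and those for Sst (39.2 to 50.6 CPM) lie above them (25.4 to 33.9 CPM).

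Pmch was at 64.4, 80.6, 78.3 and 122 CPM in F1 EDC replicates 1 to 4, and at 185, 157, 215 and 264 CPM in F1 control replicates 1 to 4. The highest F1 EDC library stayed below the lowest F1 control library. Pmch changed by -1.24 on the log2 scale (SE 0.30, 95% interval -1.88 to -0.60; edgeR adjusted p = 0.00328). Among all tested genes, 14.6% had a larger absolute log2 fold change in this contrast, where the median was 0.44. In tissue pieces, fewer Pmch neurons in the dissected block and less Pmch RNA per neuron cannot be told apart, and the same holds for every gene here. With the multimapping share of each library as a covariate the log2 fold change of Pmch was -1.17 (edgeR adjusted p = 0.00977).

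Sst was at 44.9, 45.9, 39.2 and 50.6 CPM in F1 EDC replicates 1 to 4, and at 25.4, 33.7, 30.5 and 33.9 CPM in F1 control replicates 1 to 4. The groups did not overlap, as was so for Pmch and for 44.0% of all tested genes. The estimate for Sst, on the log2 scale, was 0.56 (SE 0.18, 95% interval 0.18 to 0.94; edgeR adjusted p = 0.0151), close to the middle of the distribution over genes, since 41.3% of them had a larger absolute value. The call was kept in 6 of 8 fits with 1 library left out. It was lost without F1 control replicate 1, the lowest control (edgeR adjusted p = 0.0524). It was also lost without F1 EDC replicate 4, the highest EDC library (edgeR adjusted p = 0.0541). The log2 fold changes there were 0.47 and 0.49.

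Penk was at 43.6, 52.4, 27.8 and 35.3 CPM in F1 EDC replicates 1 to 4, and at 35.7, 51.1, 55.6 and 61.0 CPM in F1 control replicates 1 to 4. The groups overlapped, with 2 EDC libraries among the controls. The Penk log2 fold change was -0.35 (SE 0.23, 95% interval -0.85 to 0.16; edgeR adjusted p = 0.235), an interval that holds no change and also a decrease of 0.85.

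Tac1 was at 25.7, 37.0, 27.3 and 34.1 CPM in F1 EDC replicates 1 to 4, and at 21.9, 30.8, 21.8 and 27.7 CPM in F1 control replicates 1 to 4. The EDC range sat higher but overlapped that of the controls. The Tac1 log2 fold change was 0.29 (SE 0.16, 95% interval -0.04 to 0.61; edgeR adjusted p = 0.137). Tac1 and Sst thus had positive estimates and Pmch and Penk negative ones, of which the tests called Sst and Pmch.

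**Figure D2:**
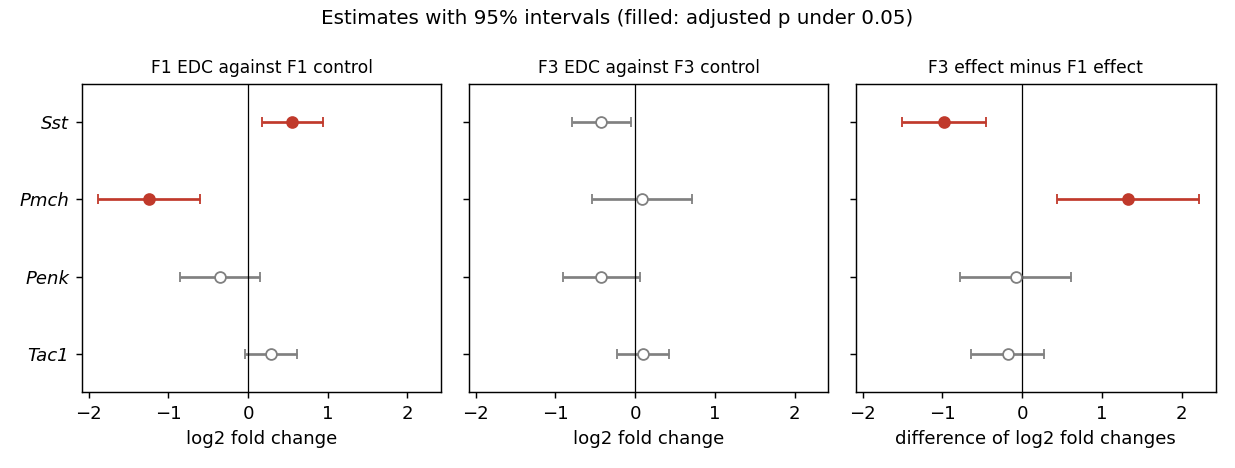
Log2 fold changes of EDC against control in F1 (left) and F3 (middle), and the difference between the F3 and the F1 log2 fold change (right), for each gene. Horizontal bars are 95% intervals from edgeR over 16 libraries, and filled red points passed an adjusted p of 0.05. Sst and Pmch are filled in the F1 panel, at 0.56 and -1.24, and in the difference panel, and no gene is filled in the F3 panel.

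In F3, where exposure was ancestral, none of the 4 genes passed the threshold, against 2.94% of all tested genes. The count was 0 in edgeR, in DESeq2 and in limma voom, and in each of these tools 1 gene, Sst in edgeR, had an unadjusted p under 0.05. The 4 F3 EDC values overlapped the F3 control values for every one of the 4 genes, whereas they did not overlap for 12.2% of all tested genes.

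Sst was at 35.9, 33.5, 32.3 and 29.4 CPM in F3 EDC replicates 1 to 4, and at 27.8, 51.0, 37.8 and 60.9 CPM in F3 control replicates 1 to 4. The F3 EDC libraries were tightly grouped and the F3 controls were spread widely, with 1 control below all EDC libraries and 3 above them. For Sst the log2 estimate was -0.42 (SE 0.18, 95% interval -0.80 to -0.05; unadjusted p = 0.0281, edgeR adjusted p = 0.227). The estimate moved with single F3 controls: it was -0.60 without replicate 1, the low control (edgeR adjusted p = 0.0325), and -0.24 without replicate 4, the high control (edgeR adjusted p = 0.414). With limma voom it was -0.26. Multimapping took 43.3% of the reads of F3 control replicate 1 and 44.4% of F3 EDC replicate 4. In the other F3 libraries it took 15.7% to 33.4%. F3 control replicate 1 and F3 EDC replicate 4 were each the lowest of their group for Sst, Pmch and Penk, but not for Tac1. A fit without any library above 40% multimapping gave -0.53 for Sst (edgeR adjusted p = 0.202). That fit lacked F3 control replicate 1, F3 EDC replicate 4, all 4 F1 EDC libraries and 2 F1 control libraries.

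Pmch was at 186, 187, 190 and 131 CPM in F3 EDC replicates 1 to 4, and at 120, 120, 138 and 278 CPM in F3 control replicates 1 to 4. In each group 3 libraries lay close together and replicate 4 lay apart, below the others in F3 EDC and above them in F3 control. Multimapping took 44.4% of the reads of F3 EDC replicate 4 and 30.1% of F3 control replicate 4. For Pmch the log2 estimate was 0.09 (SE 0.29, 95% interval -0.54 to 0.72; edgeR adjusted p = 0.917). Leaving out F3 control replicate 4 gave 0.46 and leaving out F3 EDC replicate 4 gave 0.20, while the estimate turned to -0.04 without F3 control replicate 1 and to -0.03 without F3 control replicate 2, all of them short of the threshold. An effect of the size found in F1, a log2 fold change of -1.24, lies outside this interval.

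Penk was at 65.5, 84.0, 66.3 and 50.3 CPM in F3 EDC replicates 1 to 4, and at 74.6, 123, 79.6 and 81.7 CPM in F3 control replicates 1 to 4. The highest EDC library lay above 3 of the 4 controls, and 3 EDC libraries lay below all controls. The log2 fold change was -0.43 (SE 0.22, 95% interval -0.91 to 0.06; edgeR adjusted p = 0.368). With 1 F3 library left out at a time it lay between -0.56 and -0.24, the value nearest 0 being without F3 control replicate 2, which held the highest value.

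Tac1 was at 26.1, 24.4, 18.3 and 28.7 CPM in F3 EDC replicates 1 to 4, and at 20.04, 22.5, 19.8 and 28.5 CPM in F3 control replicates 1 to 4. Both the lowest and the highest of these values were EDC libraries. The log2 fold change was 0.10 (SE 0.16, 95% interval -0.22 to 0.43; edgeR adjusted p = 0.800), the narrowest interval of the 4 genes in F3, although its counts were the lowest.

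**Figure D3:**
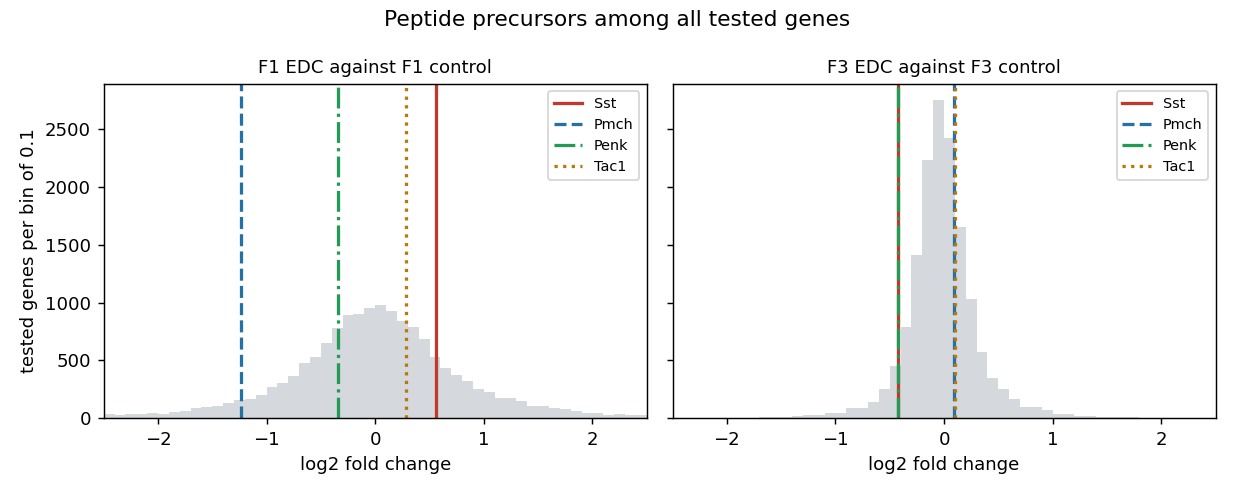
Number of tested genes (vertical axis) per bin of 0.1 in log2 fold change (horizontal axis), for EDC against control in F1 (left) and F3 (right). Vertical lines mark the 4 genes. In F1 the lines of Pmch (-1.24) and Sst (0.56) lie on the shoulders of a wide distribution, and in F3 those of Sst (-0.42) and Penk (-0.43) lie on the left side of a narrow one.

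The difference between the generations was tested directly, as the F3 log2 fold change minus the F1 log2 fold change. It was called for 2 of the 4 genes, 1 in each direction, against 43.6% of all tested genes. For Pmch the difference was 1.33 (SE 0.41, 95% interval 0.43 to 2.22; edgeR adjusted p = 0.0200), and for Sst it was -0.98 (SE 0.25, 95% interval -1.51 to -0.45; edgeR adjusted p = 0.00445). Sst thus had a positive estimate in F1 and a negative one in F3, and Pmch a negative one in F1 and one near 0 in F3. The Pmch difference lost its call with the multimapping share as a covariate, at 1.20 (edgeR adjusted p = 0.0618). For Penk the difference was -0.08 (SE 0.32, 95% interval -0.78 to 0.61; edgeR adjusted p = 0.867) and for Tac1 it was -0.18 (SE 0.22, 95% interval -0.64 to 0.28; edgeR adjusted p = 0.545), so neither was shown to differ or to be alike.

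The order of the 4 group means differed between the genes. For Pmch it ran from F1 control (205 CPM) through F3 EDC (174 CPM) and F3 control (164 CPM) to F1 EDC (86.3 CPM), and among neighbours in that order the last step alone passed the threshold (log2 difference 0.92, SE 0.29; edgeR adjusted p = 0.0177). For Sst it ran from F1 EDC (45.1 CPM) through F3 control (44.4 CPM) and F3 EDC (32.7 CPM) to F1 control (30.9 CPM), and no step between neighbours passed. For Penk it ran from F3 control (89.7 CPM) through F3 EDC (66.5 CPM) and F1 control (50.9 CPM) to F1 EDC (39.7 CPM), with both F3 groups above both F1 groups and no single step past the threshold. For Tac1 it ran from F1 EDC (31.0 CPM) through F1 control (25.5 CPM) and F3 EDC (24.4 CPM) to F3 control (22.7 CPM), again with no step past it.

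Between the generations, Penk had the largest estimate of the 4 among controls. It was higher in F3 control than in F1 control by 0.83 on the log2 scale (SE 0.23; edgeR adjusted p = 0.0151), with every F3 control library (74.6 to 123 CPM) above every F1 control library (35.7 to 61.0 CPM; such groups without overlap made up 25.2% of all tested genes), and higher in F3 EDC than in F1 EDC by 0.75 (SE 0.23; edgeR adjusted p = 0.0133). Sst was higher in F3 control than in F1 control, by 0.52 (SE 0.18; edgeR adjusted p = 0.0406), and lower in F3 EDC than in F1 EDC, at -0.46 on that scale (SE 0.18; edgeR adjusted p = 0.0350). Between the controls, leaving out any single library other than F3 control replicates 1 and 3 ended the Sst call (edgeR adjusted p up to 0.121), and between the EDC groups so did any other than F1 EDC replicate 3 and F3 EDC replicate 1 (up to 0.151). Pmch was higher in F3 EDC than in F1 EDC by 1.005 (log2 scale; SE 0.29; edgeR adjusted p = 0.0110) and Tac1 did not pass in either contrast. These calls, 2 of 4 genes between the controls and 3 of 4 between the EDC groups, stand against 27.5% and 53.5% of all tested genes, and the contrasts share their libraries with those of EDC against control.

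Without F3 control replicate 4, Pmch too was called between the controls, lower in F3 control than in F1 control by a log2 fold change of -0.69 (edgeR adjusted p = 0.0359), against -0.32 with all libraries (edgeR adjusted p = 0.462). With the multimapping share as a covariate, 1 gene was called in each of the contrasts between generations, Penk between the controls and Sst between the EDC groups.

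The genes also differed in how much they varied among rats of 1 group. The biological coefficient of variation fitted by edgeR was 28.1% for Pmch, 22.2% for Penk, 17.4% for Sst and 15.8% for Tac1, where the median over tested genes was 14.5%. Within groups, the ratio of the highest to the lowest library reached 2.31 for Pmch and 2.19 for Sst, both in F3 control, whereas in F3 EDC it was 1.45 for Pmch and 1.22 for Sst. Replicate 4 of F3 control held the highest value of Sst, Pmch and Tac1 in its group, and replicate 4 of F3 EDC held the lowest of Sst, Pmch and Penk.

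Likeness between profiles was measured as the root mean square difference of log2 CPM after centring each gene over the 16 libraries. The measure is not scaled by the spread of each gene, so genes that vary little lie close to each other. Sst and Tac1 were the closest pair, at 0.32. Of 13913 genes, 8.06% lay closer to Sst than Tac1 did, and 22.6% lay closer to Tac1 than Sst did. Estimates for Sst and Tac1 shared their sign in F1 and between the EDC groups, and had opposite signs in F3 and between the controls. The other pairs lay between 0.58 (Sst and Penk) and 0.74 (Sst and Pmch). The closest gene of all lay at 0.17 from Sst, 0.18 from Pmch, 0.20 from Penk and 0.15 from Tac1, and these genes have no name in the sources used here. The F1 EDC libraries, which stand apart, are among the 16 over which it was taken.

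The strand of the reads mattered for Pmch. In the count column that ignores strand, the Pmch ID had 0 reads in all 16 libraries (in this layout a read over genes on both strands is set aside as ambiguous), while Sst, Penk and Tac1 kept their counts to within 8 reads. The RefSeq table places Pmch within the span of Parpbp, a gene whose human product acts in DNA repair, as the only other gene around it. Only the spans were compared. Whether Parpbp lies on the other strand or has exons over Pmch was not checked, and the cause of the 0 reads was not tested. On the strand opposite to Pmch, its ID held 16, 12, 14 and 94 reads in F1 EDC replicates 1 to 4, and 3, 4, 0 and 2 reads in F1 control replicates 1 to 4. F3 EDC libraries held 9, 1, 1 and 4 such reads and F3 control libraries 2, 1, 7 and 3. All F1 EDC libraries were therefore above all F1 control libraries on the opposite strand, the reverse of their order on the Pmch strand. The share of all genes that separate in this way on their other strand was not computed. On the counted strand, 44.0% of tested genes did not overlap between these groups. The separation at the Pmch ID also rests on few reads.

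**Figure D4:**
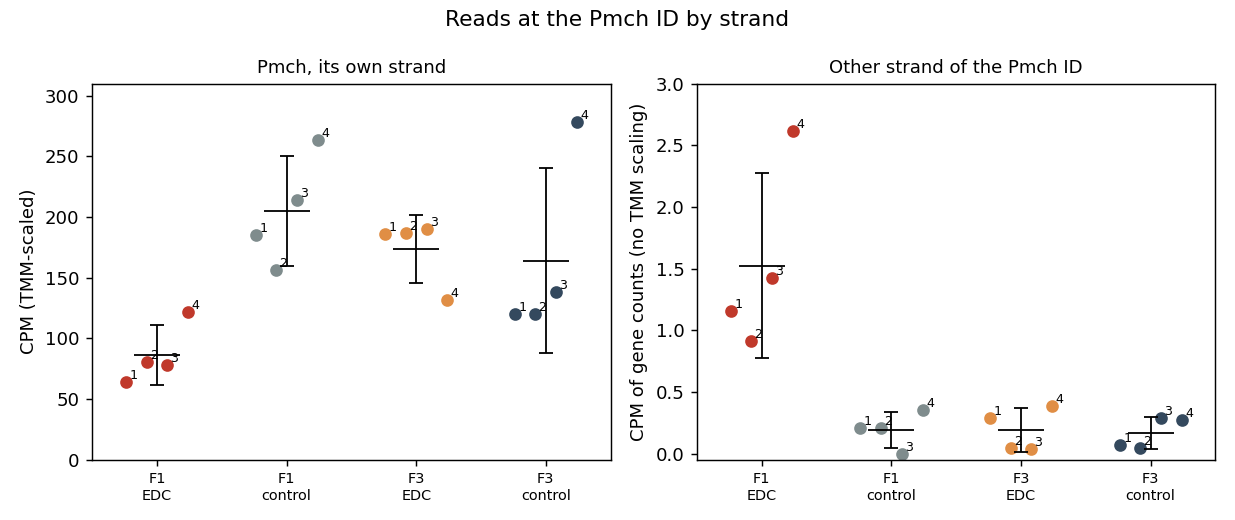
Reads at the Pmch ID in each library by group: on its own strand as TMM-scaled CPM (left), and on the other strand as CPM of gene counts without TMM scaling (right). Points are libraries marked with their replicate number, and bars are the mean and SD of 4. F1 EDC libraries are lowest as a group on the left (86.3 ± 24.7 CPM) and lie above all 12 others on the right (0.913 to 2.61 CPM, against at most 0.389 CPM). How many other genes separate in this way on their other strand was not computed.

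**Figure D5:**
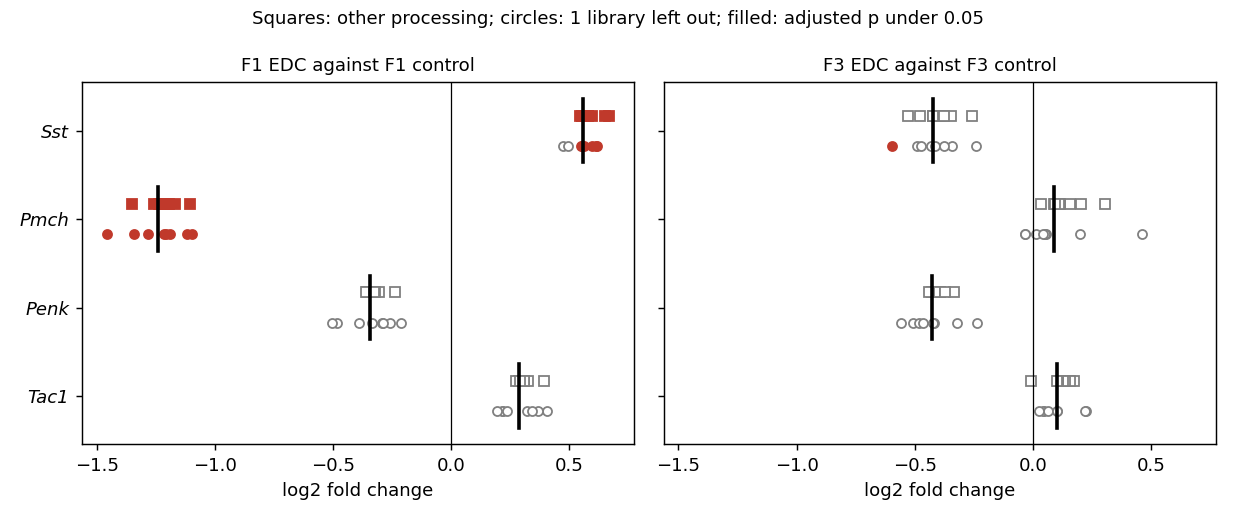
Log2 fold change of EDC against control in F1 (left) and F3 (right) for each gene when the processing is changed (squares) or 1 library is left out (circles). Black bars mark the reported values, and filled red symbols have an adjusted p under 0.05. In F1 the Pmch estimates stay between -1.46 and -1.10 and keep their call, and in F3 a single symbol, Sst without F3 control replicate 1, is filled.

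Across every alternative run for F1, the Pmch log2 fold change lay between -1.46 and -1.10 with edgeR, DESeq2 or voom adjusted p of at most 0.0134. The Sst estimate lay between 0.47 and 0.67, and its call was kept in 11 of 11 processing alternatives and in 6 of 8 fits with 1 library left out. The estimates of Penk (-0.50 to -0.21) and Tac1 (0.19 to 0.41) kept their sign and stayed short of the threshold.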

How the data were processed

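RNA sequencing was done in 16 libraries, 4 per group. Per the submitters' processing notes, reads were handled with Trimmomatic 0.33 and TopHat2 2.1 on build rn6, while the deposited files have the layout of STAR gene counts (no STAR version is stated). The deposited values are raw read counts per gene, unstranded and for each strand, with unmapped, multimapping, no-feature and ambiguous reads in separate lines that stayed out of library sizes. The column used held at least 52.5 times the counts of the other strand in every library.

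Counts were filtered with filterByExpr (minimum count 10), which left 15366 of 32883 genes and all 4 peptide genes. They were scaled with TMM factors and fitted over all 16 libraries as 4 group means with edgeR 4.0.16 in R 4.3.3 (quasi-likelihood F test, robust, two-sided). Adjusted p-values are Benjamini-Hochberg over all tested genes. Standard errors were the absolute log2 fold change over the root of F, and 95% intervals used the matching t distribution. The same fitting steps were run on simulated counts in which few genes changed. The F1 contrast called a far larger share of genes, so scaling under so broad a shift was not checked. The alternatives used DESeq2 1.42.0 and limma 3.58.1 among others. The 4 genes are always named, and planned lists of other peptide genes, receptors and markers were not used because IDs carry no names. The genes, lists and alternatives were chosen with earlier results of these data known. No pair of libraries was identical (0 pairs).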

Additional observations from a re-analysis of the deposited data

Results flagged for a closer look

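The F3 effect differed from the F1 effect for 2 of the 4 genes by the interaction contrast in edgeR: by -0.979 for Sst and by 1.33 for Pmch, on the log2 scale.

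In F3, 3 single libraries lay far from the other 3 of their group. Pmch was at 131 CPM in F3 EDC replicate 4 (44.4% multimapping), below the others of its group. It was at 278 CPM in F3 control replicate 4 (30.1% multimapping), above the others of its group. Penk was at 123 CPM in F3 control replicate 2, above the others. A criterion of this kind picks out about 1 in 20 groups by chance, and 16 groups were looked at.

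Reads on the strand opposite to Pmch, which no comparison of expression used, averaged 1.53 ± 0.754 CPM of gene counts in the F1 EDC libraries and 0.193 ± 0.146 CPM in the F1 control libraries (SD, n = 4 each). In F3 they averaged 0.192 ± 0.175 CPM in the F3 EDC libraries and 0.168 ± 0.128 CPM in the F3 control libraries (SD, n = 4 each). They equalled 1.05% to 1.94% of the Pmch count in F1 EDC libraries and 0% to 0.135% in F1 control libraries. Over all genes the other strand held 1.59% to 1.66% of the gene counts in F1 EDC and 1.54% to 1.65% in F1 control. Whether these reads come from the overlapping gene was not tested.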

How the results depend on the processing

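Of 403 log2 fold changes recomputed for the 4 genes, 365 kept their direction and their side of the threshold. In the contrasts of EDC against control, leaving out 1 library at a time gave 0.47 to 0.62 for Sst in F1 and -0.60 to -0.24 in F3, and -0.036 to 0.46 for Pmch in F3 (-0.036 and -0.035 without F3 control replicates 1 and 2), with 1 to 2 of the 4 genes called in F1 and 0 to 1 in F3. For the difference between generations it gave -0.21 to 0.11 for Penk. The reversal was at 0.06, 0.08, 0.11 and 0.02 without F1 control replicate 1, F1 EDC replicate 2, F3 control replicate 2 and F3 EDC replicate 4. Between the controls it gave 0.33 to 0.69 for Sst and -0.69 to -0.18 for Pmch, with 1 to 2 genes called. Between the EDC groups it gave -0.51 to -0.36 for Sst and -0.44 to -0.24 for Tac1.

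Sst lost its call between the controls with upper quartile factors (0.48), gene-count totals alone (0.43), limma voom (0.40), no filter (0.54) and the multimapping covariate (0.48), each leaving 1 gene called. Between the EDC groups it lost it with no filter (-0.44). The multimapping covariate ended calls for Pmch in the difference (1.20, with 1 gene called) and between the EDC groups (0.83), and for Penk there (0.71), with 1 gene called. Tac1 passed between the EDC groups with upper quartile factors (-0.41), totals alone (-0.49), limma voom (-0.35) and the replicate block (-0.34). Without the libraries above 40% multimapping, Pmch turned to 0.084 between the controls and Tac1 to -0.0091 in F3. That setting left 0 F1 EDC libraries, so F1 EDC was not fitted. Unstranded counts gave no value for Pmch. The causes were not tested.

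Totals alone moved the median log2 fold change of all genes by 0.119 in F1 and by -0.125 between the EDC groups. In F3 the genes called over the whole table numbered 452, and 166 with totals alone, 775 with DESeq2, 1508 with voom, 0 without the libraries above 40% multimapping, and 34 to 555 with 1 library left out. The split in F3 was 165 higher and 287 lower, against 200 and 184 with upper quartile factors and 137 and 29 with totals alone.

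Replicate numbers are shared by the groups, but same-numbered libraries did not deviate together (r from -0.12 to 0.0947 over 16 pairs, with 4 correlating best with their own number). The replicate block gave -1.26 for Pmch and 0.55 for Sst in F1, and it changed the Tac1 call above and no other.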
